A study of Mus musculus with 4 samples.

Results

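Leukotrienes and prostaglandins are lipid signals made from arachidonic acid, and 10 genes that make or receive them are described here in LTi (lymphoid tissue inducer) cells, which belong to the innate lymphocytes. The genes were taken by name: the leukotriene enzymes Alox5, Alox5ap, Lta4h and Ltc4s, the leukotriene receptor Cysltr1, the cyclooxygenase Ptgs1, and the prostanoid receptors Ptger1, Ptger2, Ptger4 and Ptgir. All 10 were found among the 27179 genes of the deposited table. Of these, 8 had reads and 8 passed the filter on low values, while Alox5 and Ptgir had none in any library.

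The cells came from the lamina propria of the small intestine of C57BL/6 mice, sorted as live, lineage-negative, CD127+ CCR6+ cells without KLRG1, NK1.1 or NKp46. There were 2 RNA sequencing libraries from Gata3+/+ mice (called control) and 2 from Gata3fl/fl mice with VavCre (labelled Gata3-KO, called VavCre). Vav-driven Cre is active in blood cells in general, so floxed Gata3, which encodes a transcription factor, can be lost in every blood lineage of such mice and not in LTi cells alone. The labels give no ages, and do not say whether replicates came from separate or pooled animals, so p-values measure only the spread between these libraries, which may be technical.

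Cytosolic phospholipase frees arachidonic acid from membranes. The lipoxygenase encoded by Alox5 works with its helper protein FLAP, encoded by Alox5ap, to make leukotriene A4, which Lta4h turns into the leukocyte attractant leukotriene B4 and Ltc4s into the cysteinyl leukotrienes sensed by Cysltr1. Cyclooxygenases, encoded by Ptgs1 and Ptgs2, start the prostanoid arm. Its product prostaglandin E2 acts through the EP receptors, of which EP2 (Ptger2) and EP4 (Ptger4) raise cyclic AMP and EP1 (Ptger1) raises calcium, and prostacyclin acts through Ptgir. In the gut, prostaglandin E2 is known to act on group 3 innate lymphoid cells through EP4 and to favour interleukin 22.

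The prostaglandin E2 receptors Ptger2 and Ptger4 are the members of a ratio described below, which was picked with its values known. Neither gene passed the test over all genes. RefSeq sequence (GRCm38.p6) of the 250 bases before the start of each is shown because GATA3 is the factor that was targeted. Capitals mark letters of the GATA site, searched on both strands as AGATAA, as its form with T first, TGATAA, and as the same pair of words with a final G in place of the final A, which gives AGATAG and, with T first, TGATAG. Both are printed 5′ to 3′ along the gene, Ptger2 from the plus strand (chr14:44987861-44988110) and Ptger4 from the minus strand (chr15:5244188-5244437).
Ptger2: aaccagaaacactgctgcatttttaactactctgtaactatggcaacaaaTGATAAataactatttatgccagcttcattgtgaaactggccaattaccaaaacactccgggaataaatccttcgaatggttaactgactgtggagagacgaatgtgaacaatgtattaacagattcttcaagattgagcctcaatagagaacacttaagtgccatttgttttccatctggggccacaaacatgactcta
Ptger4: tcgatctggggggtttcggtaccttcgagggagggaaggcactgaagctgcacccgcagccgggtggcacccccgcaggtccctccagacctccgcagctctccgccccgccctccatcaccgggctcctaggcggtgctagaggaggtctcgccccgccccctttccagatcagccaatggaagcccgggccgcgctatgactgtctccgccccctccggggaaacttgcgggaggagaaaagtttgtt
The Ptger2 window held 1 match, TGATAA, which began 200 bases before the start, and the Ptger4 window held none. Among the 7 members with a promoter in the table, the other match was in Alox5 (TGATAG on the opposite strand, 117 bases before the start). Of all 32851 promoter windows of that length, 26.5% held at least 1 match. The cyclic AMP response element TGACGTCA, a palindrome, was in none of the 7 members' windows and in 1.55% of all windows. A match is a description of letters, and an absent one says nothing of sites elsewhere.

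Sequencing depth was 14294708 and 12670034 reads in control and 24315878 and 23973995 reads in VavCre libraries. Levels are in RPKM, reads scaled to gene length in kilobases and to library depth, and differences are on the log2(RPKM + 1) scale as VavCre minus control, which understates changes of low genes. Over 14293 tested genes, limma called 1279 at an adjusted p under 0.05 (1181 higher, 98 lower in VavCre), and the median difference of all tested genes was 0.43. Scaling the libraries by median ratios brought that median to 0.05 and left 147 calls (85 higher, 62 lower), so values after this scaling are given beside those on the deposited scale. Gata3 was at 84.3 and 50.7 RPKM (control) and 34.5 and 23.3 RPKM (VavCre), a log2 difference of -1.18 ± 0.36 (SE) with an adjusted p of 0.091 in limma. Those reads cover the whole gene, including exons that a deletion can leave in place.

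Markers of the sorted cells were present in all 4 libraries. Ccr6 and Il7r (CD127), both used in the sort, were at no less than 45.7 RPKM in each. Of 16 LTi markers, limma called Il22 and Cd4 lower and none higher. Markers of other cells were present too. Of 13 B and plasma cell markers limma called 11 higher in VavCre libraries, of 11 epithelial markers 8, and of 13 T cell markers 5, and it called none lower in those lists. After median-ratio scaling the calls were 0, 4 and 1, while all 13 B and plasma cell markers had both VavCre values above both control values on either scale.

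**Figure D1:**
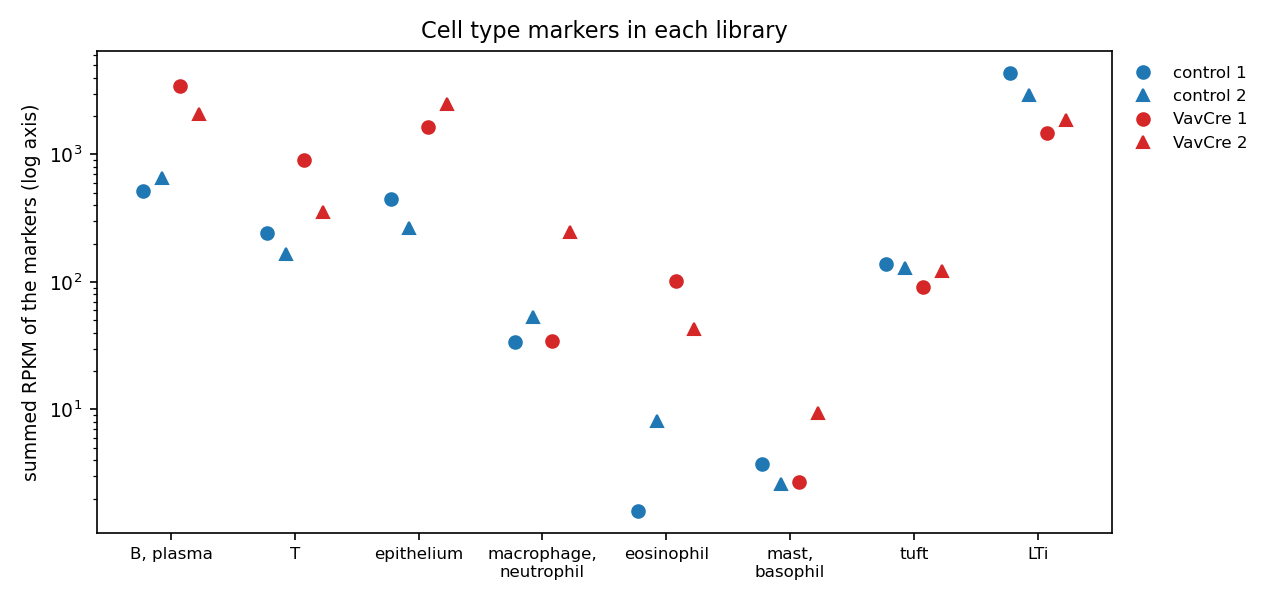
Summed RPKM of each list of cell type markers (log axis) in each library, with control in blue, VavCre in red, circles for replicate 1 and triangles for replicate 2. The B and plasma cell sum is 514 and 656 in control and 3453 and 2068 in VavCre libraries, and the macrophage and neutrophil sum is highest in VavCre replicate 2, at 244.

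The epithelial sum was 446 and 266 RPKM (control) and 1629.8 and 2492 RPKM (VavCre), and the T cell sum was 241 and 166 against 903 and 356 RPKM. Eosinophil markers summed to 1.60 and 8.05 RPKM against 101 and 42.9 RPKM, nearly all of it Prg2 (called higher), while Epx and Ear1, which define eosinophils, were listed at 0 in all 4 libraries. Il5ra of that list had 0 and 2 reads (control) and 22 and 62 reads (VavCre), and Ear2 had 0 and 0 against 2 and 5 reads. Siglecf had 2 and 11 against 3 and 38 reads, and Ccr3 had 2 and 1 against 3 and 2 reads. Of the 3 tested eosinophil markers, 2 had both VavCre values above both control values and 1 overlapped. Of all tested genes, 53.9% had both VavCre values above. The mast cell and basophil sum was 3.75, 2.61, 2.67 and 9.29 RPKM, in the order control replicates 1 and 2, VavCre replicates 1 and 2. Of its 12 genes 7 had no reads, including Fcer1a, Ms4a2 and Gata2. Tuft cells are epithelial cells rich in leukotriene enzymes, and of their markers Dclk1 was at 0.0607 RPKM in control replicate 2 and at 0 elsewhere, and Pou2f3 was at 0.728 RPKM in VavCre replicate 2 and at 0 elsewhere. Fyb2, Gng13 and Sh2d7 of the same list had 0 reads in both control libraries and reads in both VavCre libraries, 55 and 23 for Fyb2, 6 and 6 for Gng13 and 1 and 31 for Sh2d7. Of the 4 tested tuft cell markers none was called. Both VavCre values lay above both control values for 1 of them and below for 1, and 2 overlapped. Their median log2 difference was 0.06, and -0.38 after median-ratio scaling. The sum of the whole tuft cell list, 138, 129, 91.9 and 122 RPKM in the same order of libraries, was mostly Plcg2, which many blood cells express. The dendritic cell sum was 334 and 276 RPKM against 482 and 448 RPKM, with Siglech and Tcf4 higher among 10. ILC2 markers summed to 136 and 95.9 against 333 and 165 RPKM, of which Areg alone was 41.2 and 40.3 against 295 and 139 RPKM. Areg was called higher and Ccr8 lower among 6 tested. Of these, 2 had both VavCre values above both control values and 2 below, and the median log2 difference was -0.65. Stromal and endothelial markers summed to 40.6 and 98.4 against 40.6 and 68.2 RPKM, with none of 9 tested genes called. In the macrophage and neutrophil list none of 10 tested genes was called. The part of these cells in the results below was not tested. In bulk RNA, fewer cells of a type and less RNA per cell cannot be told apart.

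Lta4h was the most abundant of the 10 genes per length, and Ptger2, Ptger4 and Ptger1 came next. Averaged over the 4 libraries, Lta4h stood at 42.3 RPKM, above 89.5% of tested genes, Ptger2 at 23.1, Ptger4 at 14.8 and Ptger1 at 9.20 RPKM. Lower down were Alox5ap at 3.58, Ptgs1 at 2.86, Ltc4s at 2.10 and Cysltr1 at 1.58 RPKM. The mean of Alox5ap joins unlike genotypes: in control libraries it was the lowest of the 8 genes with reads, at 0.139 RPKM against 1.07 for Ltc4s, 1.3 for Ptgs1 and 1.95 for Cysltr1, and in VavCre libraries it was at 7.03 RPKM. Among neighbours in this order, the ranges over libraries overlapped for each pair from Ptger2 down to Cysltr1, so these ranges do not separate the ranks. The ranges compare unlike libraries and join both genotypes. Within each library Ptger4 was above Ptger1, at 1.21 to 2.19 times its level, while Ptger4 ran from 0.299 to 1.14 times the level of Ptger2. Lta4h lay just above Ptger2, with its lowest library at 36.2 and the highest Ptger2 library at 36.1 RPKM.

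**Figure D2:**
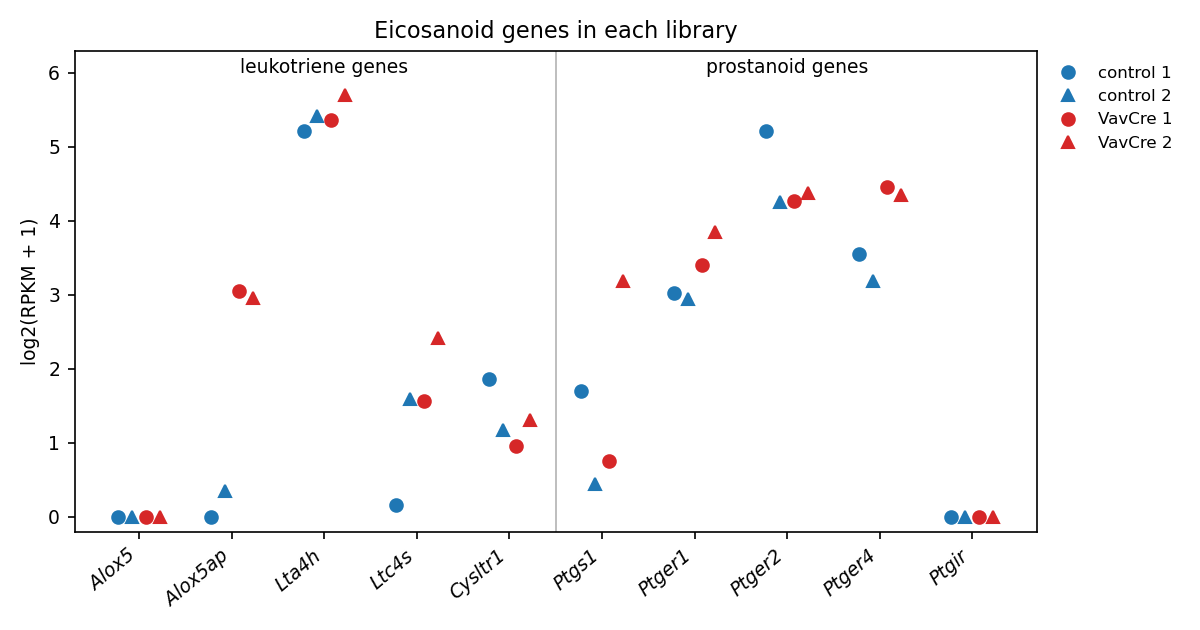
Level of each of the 10 genes as log2(RPKM + 1) in each library, with control in blue, VavCre in red, circles for replicate 1 and triangles for replicate 2. Alox5ap is near 0 in both control libraries and near 3 in both VavCre libraries, while Alox5 and Ptgir are at 0 throughout.

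In the test over all genes, 1 of the 8 tested members passed, Alox5ap, which was higher in VavCre libraries. Of all tested genes, 8.95% passed in either direction and 8.26% were called higher and 0.686% lower, so 1 of 8 is near the background. After median-ratio scaling Alox5ap was again the 1 member called, against 1.03% of all tested genes (0.595% higher, 0.434% lower). A difference of at least 2-fold upward on the log2(RPKM + 1) scale was found in 3 members (Alox5ap, Ltc4s, Ptger4) and in 21.1% of all tested genes, and after scaling in 1 member and 11.2%. The median of the 8 log2 differences was 0.77 on the deposited scale and 0.30 after scaling, beside 0.43 and 0.05 over all tested genes. Both VavCre libraries lay above both control libraries for 3 members (Alox5ap, Ptger1, Ptger4) and below for none, where 53.9% and 7.56% of all tested genes did so. After median-ratio scaling 2 lay above (Alox5ap, Ptger4) and 3 below (Lta4h, Ptger2, Cysltr1), against 30.1% and 25.2%.

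Alox5ap (Entrez 11690, chromosome 5: 149265004 to 149288153, GRCm38) encodes FLAP, the membrane protein that presents arachidonic acid to the lipoxygenase. It was listed at 0 and 0.277 RPKM (control) and 7.32 and 6.74 RPKM (VavCre), so the genotypes were far apart and each agreed within itself. These values correspond to 0 and 3 reads in control and 152 and 138 reads in VavCre libraries. Pooled by genotype they are 3 and 290 reads, or 0.111 and 6.01 CPM (reads scaled to library depth alone), with a ratio of 54.0 and an exact 95% interval of 18.3 to 263 that covers counting error only. Its log2 difference was 2.83 ± 0.33 (SE, n = 2 per genotype) with an adjusted p of 0.0161 in limma, and 2.53 ± 0.32 with an adjusted p of 0.0495 after median-ratio scaling. It passed the filter on low values through the VavCre libraries alone, so a gene with this filter result could hardly show another direction. An antisense gene shares 13.3% of the Alox5ap exon bases. Reads in those bases cannot be assigned to Alox5ap alone unless strand was used in counting, which is not stated. The call was lost with upper-quartile scaling (2.49, adjusted p = 0.0511 in limma), with limma-voom on recovered reads (5.94, adjusted p = 0.0844) and without any 1 of the 4 libraries (2.65 to 3.0, adjusted p from 0.0774 to 0.212 in limma), and also with no filter (adjusted p = 0.0884 in limma).

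Alox5 (chromosome 6: 116410071 to 116461178), the lipoxygenase that FLAP serves, had 0 reads in all 4 libraries. With a floor of 3 reads, this allows up to 0.210 and 0.237 CPM in control and 0.123 and 0.125 CPM in VavCre libraries. Alox5ap, by comparison, had 6.01 CPM over both VavCre libraries. The helper was therefore detected in VavCre libraries in which its enzyme was not detectable at this depth. Alox5ap was higher in both VavCre libraries, as were the summed B and plasma cell markers given above and some markers of other cells. Siglech, of plasmacytoid dendritic cells, was at 0.233 and 0.0659 against 30.8 and 15.3 RPKM. Of the 10 dendritic cell markers, 7 had both VavCre values above both control values, 1 had them below and 2 overlapped. Over all tested genes 53.9% lay above and 7.56% below. Among 10 tested macrophage and neutrophil markers, 2 had both VavCre values above both control values and 8 overlapped. Cd68, one of the former, was at 2.50 and 7.60 against 16.6 and 29.0 RPKM, and Csf1r, one of the latter, at 1.03 and 4.79 against 0.658 and 24.4 RPKM. The part of those cells in the Alox5ap values was not tested.

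Leukotriene A4 can go either to leukotriene B4 or to leukotriene C4. Lta4h (chromosome 10: 93453396 to 93484896), the hydrolase that makes leukotriene B4, was at 36.2 and 41.6 RPKM (control) and 40.3 and 51.2 RPKM (VavCre). The genotypes overlapped, and the log2 difference of 0.22 ± 0.27 had an adjusted p of 0.625 in limma. After median-ratio scaling it turned to -0.35 ± 0.24 (adjusted p = 0.433 in limma), so its direction depends on the scaling. Ltc4s (chromosome 11: 50236461 to 50238532), the synthase of leukotriene C4, was at 0.119 and 2.01 RPKM (control) and 1.96 and 4.33 RPKM (VavCre). The second control library lay above the first VavCre library. These are 1, 15, 28 and 61 reads, and the log2 difference of 1.11 ± 0.57 had an adjusted p of 0.238 in limma. Reads of an antisense gene that shares 26.4% of its exon bases cannot be told apart from its own unless strand was used in counting, which the sources used here do not give.

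Of the cysteinyl leukotriene receptors, Cysltr1 (chromosome X: 106576509 to 106603679), which serves type 2 innate lymphoid cells, was low at 2.64 and 1.26 RPKM (control) and 0.941 and 1.48 RPKM (VavCre). The groups overlapped, with a log2 difference of -0.39 ± 0.38 (adjusted p = 0.530 in limma). Cysltr2, the second receptor, was higher per length in every library, at 21.4 and 13.4 RPKM (control) and 32.9 and 17.6 RPKM (VavCre), 8.11 to 35.0 times the level of Cysltr1. Its log2 difference of 0.49 ± 0.40 had an adjusted p of 0.451 in limma. Ltb4r1, the high-affinity receptor for leukotriene B4, was at 5.03 and 6.75 against 11.6 and 45.8 RPKM (log2 1.83 ± 0.63, adjusted p = 0.124 in limma). Its highest value was in VavCre replicate 2.

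Ptgs1 (chromosome 2: 36216742 to 36258593), the constitutive cyclooxygenase, varied more within than between genotypes. It was at 2.25 and 0.358 RPKM (control) and 0.689 and 8.13 RPKM (VavCre), and the log2 difference of 0.90 ± 0.90 had an adjusted p of 0.546 in limma. Without VavCre replicate 2 the difference was -0.31. That library also had the highest macrophage markers, with C1qa at 53.8 RPKM against 1.71 to 5.11 in the other 3 libraries, and the only reads of the thromboxane synthase Tbxas1, at 2.28 RPKM. The part of those cells in the Ptgs1 value was not tested. Ptgs2, the inducible cyclooxygenase, was higher in mean level than Ptgs1, at 4.64 and 22.4 RPKM (control) and 2.27 and 12.2 RPKM (VavCre), with overlapping groups (log2 -0.81 ± 0.98, adjusted p = 0.625 in limma). Downstream, Ptges, the inducible prostaglandin E synthase, was abundant in each library, at 41.2 and 33.2 against 28.8 and 46.3 RPKM (log2 -0.02 ± 0.33, adjusted p = 0.982 in limma).

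Of the EP receptors, Ptger4 was higher in both VavCre than in any control library and Ptger2 was not, though neither passed the test. Ptger2 (chromosome 14: 44988111 to 45003820) was at 36.1 and 18.1 RPKM (control) and 18.3 and 19.8 RPKM (VavCre). Control replicate 1 stood well above the other 3, which lay close together, and the log2 difference of -0.41 ± 0.37 had an adjusted p of 0.50 in limma. Without control replicate 1 it was 0.070, and with all libraries after median-ratio scaling it was -0.97 ± 0.33 (adjusted p = 0.182 in limma). Ptger4 (chromosome 15: 5233399 to 5244187) was at 10.8 and 8.09 RPKM (control) and 20.9 and 19.4 RPKM (VavCre), so the groups did not overlap and the mean was 2.14 times as high in VavCre libraries. Its log2 difference of 1.03 ± 0.29 did not pass limma's test (adjusted p = 0.0756), and it was 0.48 ± 0.25 after median-ratio scaling (adjusted p = 0.318 in limma). A processed pseudogene on the other strand shares 15.3% of its exon bases, so part of its reads may not be its own.

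Within a library the ratio of both receptors does not depend on how libraries are scaled. Ptger4 stood at 0.299 and 0.448 times the level of Ptger2 in control and at 1.14 and 0.979 times in VavCre libraries. In control libraries Ptger2 was thus the highest EP receptor mRNA per length, and in VavCre libraries both were about even. The log2 ratio differed by 1.53 ± 0.31 (SE, n = 2 per genotype), a 2.89-fold difference, with an exact two-sided permutation p of 0.333, the smallest that 2 against 2 libraries can give. This was 1 of 4 receptor ratios computed, all chosen after their values were seen, and the adjusted exact p was 0.444. Ptger1 to Ptger2 moved the same way, from 0.198 and 0.371 to 0.523 and 0.678, with the same exact permutation p. Ptger4 to Ptger1 overlapped between genotypes, at 1.51 and 1.21 against 2.19 and 1.44 (exact permutation p = 0.667). Cysltr2 to Cysltr1, the fourth ratio, was 8.11 and 10.6 in control and 35.0 and 11.9 in VavCre libraries (exact permutation p = 0.333). B and T cell markers moved with the Ptger4 to Ptger2 ratio, as given above, and their part in it was not tested.

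**Figure D3:**
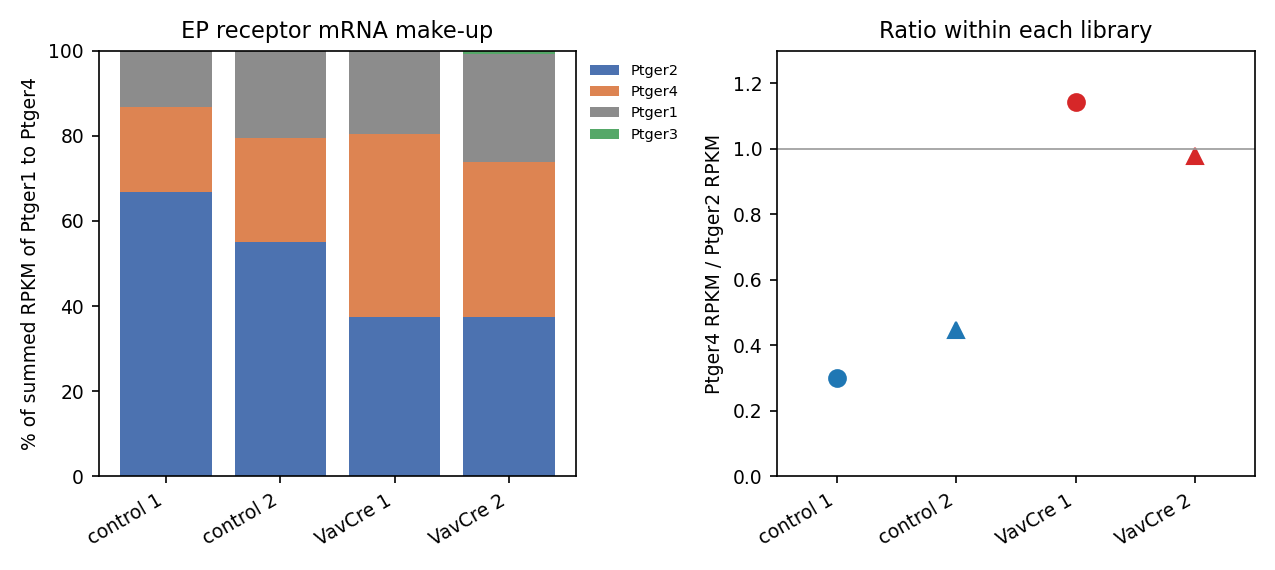
Left, share of each EP receptor in the summed RPKM of Ptger1 to Ptger4 in each library; right, Ptger4 RPKM divided by Ptger2 RPKM in each library, with a line at 1. Ptger2 makes up 66.8% and 55% of the sum in control and 37.5% and 37.4% in VavCre libraries, and Ptger4 makes up 20% and 24.6% against 42.9% and 36.6%.

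The summed EP receptor level was 54.0 and 32.9 RPKM (control) and 48.8 and 52.9 RPKM (VavCre). Ptger3 added 0.372 RPKM in VavCre replicate 2 and nothing elsewhere.

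Ptger1 (chromosome 8: 83666644 to 83672756) was at 7.12 and 6.71 RPKM (control) and 9.58 and 13.4 RPKM (VavCre). VavCre lay above control in both libraries, with a log2 difference of 0.64 ± 0.31 (adjusted p = 0.216 in limma) that shrank to 0.11 ± 0.26 after median-ratio scaling (adjusted p = 0.838 in limma). Its level is uncertain, since its exons are not free of overlap with the opposite strand and the use of strand in counting is not stated. Ptgir, the prostacyclin receptor (chromosome 7: 16906490 to 16910905), had 0 reads in all 4 libraries, with the same floors as Alox5. Of the other prostanoid receptors, Tbxa2r, for thromboxane, was at 0.0365 and 0.987 against 3.54 and 1.46 RPKM (adjusted p = 0.146 in limma). The prostaglandin D2 receptor gene Ptgdr2, a marker of ILC2, was at 0.410 RPKM in VavCre replicate 2 and at 0 in the other libraries.

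**Figure D4:**
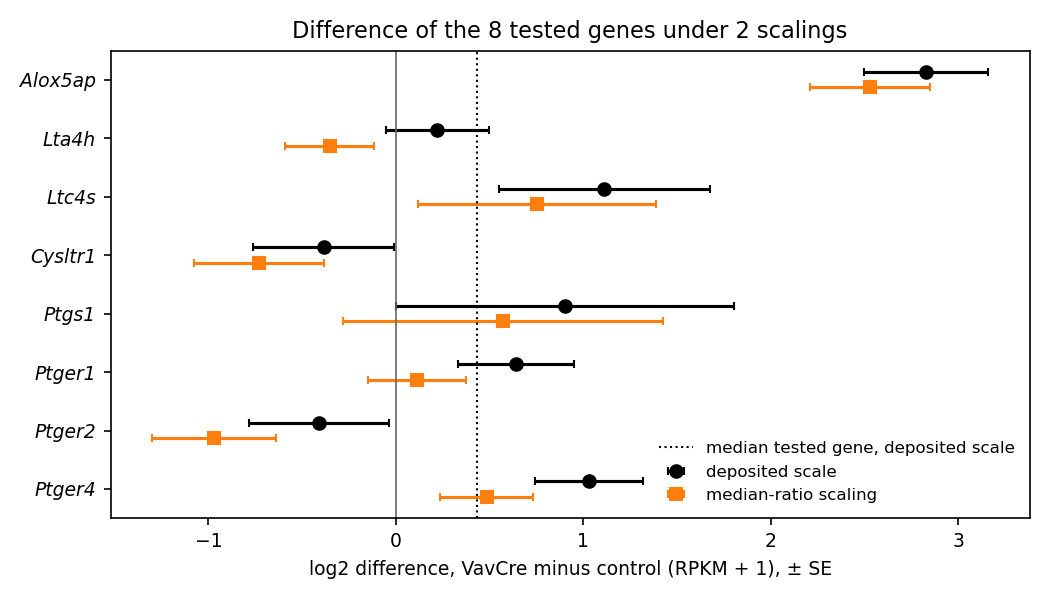
Log2 difference (VavCre minus control, RPKM + 1) of the 8 tested genes with its standard error, on the deposited scale (black circles) and after median-ratio scaling (orange squares); the dotted line is the median tested gene on the deposited scale, at 0.43. Alox5ap stands at 2.83 and 2.53, and Lta4h changes sign between the scalings.

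The wider pathway was read from 9 gene lists, which hold 103 genes with the members included. Of the 82 tested, 8 were higher and 1 lower (Rgs2), and after median-ratio scaling 1 higher (Alox5ap) and 1 lower (Rgs2) remained called. Over all tested genes 8.95% were called on the deposited scale and 1.03% after scaling, beside 9 and 2 of these 82. Upstream, of 15 tested genes of arachidonate release 2 rose, the secreted phospholipases Pla2g2d and Pla2g5. Pla2g2d had 0 reads in both control and 58 and 92 reads in VavCre libraries, at least 27.9-fold higher against a floor of 3 reads over the group (log2 1.23 ± 0.25, adjusted p = 0.0401 in limma), and it passed the filter through VavCre libraries alone. Pla2g5 was at 0.277 and 0 against 1.93 and 2.68 RPKM (adjusted p = 0.0377 in limma). Pla2g4a, the cytosolic phospholipase that feeds both arms, was at 0.615 and 1.64 against 1.88 and 2.58 RPKM (adjusted p = 0.303 in limma).

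Among 8 tested leukotriene synthesis genes Alox5ap and Mgst3 rose, beside 8.26% of all tested genes called higher. Mgst3, a microsomal glutathione transferase of the same protein family as FLAP and the leukotriene C4 synthase, went from 16 and 10.8 to 63.7 and 87.9 RPKM (log2 2.42 ± 0.32, adjusted p = 0.0196 in limma). Its relative Mgst2, which can also make leukotriene C4, was at 22.4 and 7.64 against 72.3 and 42.8 RPKM (log2 1.99 ± 0.54, adjusted p = 0.0726 in limma). Both were more abundant than Ltc4s in every library. Mgst3 was also above Lta4h in both VavCre libraries, and Mgst2 was above Lta4h in VavCre replicate 1. In limma none of the 3 tested leukotriene receptors, 2 other lipoxygenases, 9 prostanoid synthesis genes or 4 prostanoid receptors passed, members included. Hpgds, the blood cell prostaglandin D synthase, was at 1.02 and 0.383 against 1.61 and 2.25 RPKM (adjusted p = 0.179 in limma).

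Of 9 genes of transport and breakdown, all tested, Ephx2 and Cyp4f18 rose, beside 8.26% of all tested genes called higher. Ephx2, the soluble epoxide hydrolase, went from 4.71 and 3.99 to 30.9 and 57.7 RPKM (log2 3.02 ± 0.37, adjusted p = 0.0177 in limma). Cyp4f18, which inactivates leukotriene B4 by oxidation, went from 3.62 and 7.0 to 20.4 and 33.3 RPKM (log2 2.16 ± 0.40, adjusted p = 0.0336 in limma). Neither passed after median-ratio scaling (adjusted p = 0.0511 and 0.116 in limma). Hpgd, which breaks down prostaglandin E2, was at 1.22 and 0.964 against 1.63 and 4.80 RPKM (adjusted p = 0.233 in limma). B cell and epithelial markers rose in the same libraries as these genes, with Epcam at 21.7 and 20.5 against 135 and 163 RPKM, and their part was not tested.

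**Figure D5:**
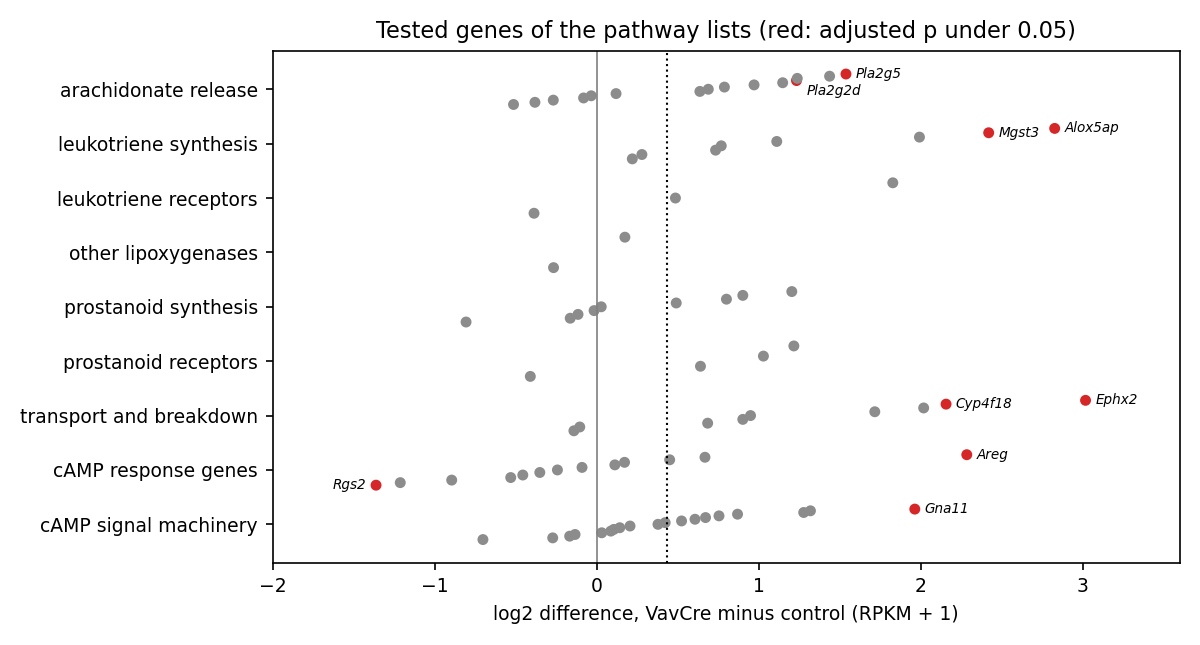
Log2 difference (VavCre minus control, RPKM + 1) of every tested gene of the 9 pathway lists, 1 point per gene, red and named where the adjusted p in limma is under 0.05; the solid line is 0 and the dotted line the median tested gene at 0.43. The called genes are Alox5ap, Mgst3, Pla2g2d, Pla2g5, Ephx2, Cyp4f18, Areg and Gna11 to the right and Rgs2 to the left.

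Genes that cyclic AMP is known to induce were read from a list of 13, of which 1 fell and 1 rose. Neither cyclic AMP nor receptor activity was measured, and the part of EP2 and EP4 in these values was not tested. Of all tested genes, 0.686% were called lower and 8.26% higher. Rgs2, a regulator of G protein signalling, fell from 195 and 157 to 74.5 and 61.1 RPKM (log2 -1.36 ± 0.28, adjusted p = 0.0403 in limma, and -1.94 with an adjusted p of 0.0486 after median-ratio scaling). Areg, the growth factor amphiregulin, rose from 41.2 and 40.3 to 295 and 139 RPKM (log2 2.29 ± 0.40, adjusted p = 0.0295 in limma) and did not pass after scaling (adjusted p = 0.113). Nr4a3, a nuclear receptor, was at 285 and 217 against 125 and 91.6 RPKM (adjusted p = 0.0625 in limma). Crem, which encodes a repressor induced by cyclic AMP, was at 613 and 335 against 237 and 249 RPKM (adjusted p = 0.168 in limma). On the deposited scale 5 of the 13 had both VavCre values below both control values and 2 had them above. Over all tested genes the shares on the deposited scale were 7.56% and 53.9%. After scaling the numbers were 9 and 1, beside 25.2% and 30.1% of all tested genes, and the list's median difference was -0.83 beside 0.05 over all tested genes. On that scale the LTi markers had 12 of 16 below, 1 above and a median of -0.86.

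Between receptor and target, 1 of 19 tested genes of the cyclic AMP machinery and other G protein signalling rose, beside 8.26% of all tested genes. This was Gna11, a Gq-type G protein alpha subunit, from 5.02 and 4.94 to 14.4 and 34.4 RPKM (log2 1.96 ± 0.44, adjusted p = 0.0471 in limma, and 0.138 after median-ratio scaling). Gnas, the stimulatory alpha subunit through which EP2 and EP4 signal, was at 38.6 and 32.6 against 34.9 and 41.0 RPKM (log2 0.09 ± 0.27, adjusted p = 0.856 in limma). Prkar1a, a regulatory subunit of protein kinase A, was at 501 and 365 against 242 and 285 RPKM (log2 -0.70 ± 0.31, adjusted p = 0.189 in limma).

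The genes whose profile over the 4 libraries lay nearest to a member were sought by the distance between centred log2(RPKM + 1) values. Nearest to Alox5ap were Spry1 at a distance of 0.14, Rtkn at 0.16 and Gramd3 at 0.16, which were also called higher. Spry1, an inhibitor of receptor tyrosine kinase signalling, was at 1.57 and 2.28 against 19.4 and 16.8 RPKM. Lta4h lay nearest to Arfgap1 (0.04), Phf14 (0.05) and Zfp955b (0.05), and Ptger2 to Snora5c (0.05), Cars (0.06) and Bpnt1 (0.08). The Ptger2 neighbours shared its high value in control replicate 1, as in Cars, at 65.0 RPKM there and 33.7, 33.7 and 38.2 RPKM in the other libraries. With 4 libraries such likeness is a description only.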

How the data were processed

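From their own pattern, the values that the authors deposited were found to be log2(RPKM + 1) plus 0.0001. Per the submitters' processing notes Subread and featureCounts were used with mm10. For versions, annotation, strand setting and multi-mapping reads, nothing is stated in the labels or file header. The labels' protocols name Smart-seq2, which has no molecular identifiers.

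Values were turned back to RPKM, and whole reads were recovered from their steps (within 0.001 reads in 100% of 19047 genes with a value above 0). Gene lengths were chosen to make reads whole, so this share does not show that each length was right: recovered reads summed to 102% of the totals. The length of Ptger1 was not settled, so its reads are not printed. Genes were tested with at least 0.5226 CPM in 2 libraries and 15 reads in total, by limma 3.58.1 (R 4.3.3; trend, robust, two-sided, Benjamini-Hochberg over all tested genes, threshold 0.05, pseudocount 1). On simulated data of 14293 genes for this comparison, it called 22.4% of genes changed 2-fold and 92.8% of those changed 4-fold, and 7.46% of its calls were false; those data had no shift of the median gene. Symbols and coordinates came from RefSeq (GRCm38.p6, 25275 identifiers matched), overlaps from GENCODE M21.

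Named genes were all members, Gata3, called genes of the lists, some further pathway genes and markers; others, such as Cd68, Csf1r, Fyb2, Gnas, Hpgd, Il5ra, Mgst2 and Tbxas1, and the receptor ratios were picked with their values known. Some genes are not reported here. The members and lists were chosen with earlier results of these data known. Further tools were scipy 1.17.1, pandas 2.3.3 and numpy 2.4.6 in Python 3.11.15, with figures by matplotlib 3.10.9.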

Additional observations from a re-analysis of the deposited data

How the results depend on the processing

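Of the members, 1 was called, and also with median-ratio and TMM scaling, a filter of 5 CPM, a pseudocount of 0.1 and a replicate block; 0 were called with upper-quartile scaling, no filter, limma-voom, limma-voom with median-ratio scaling and the replicate block with median-ratio scaling, each with 2 at an unadjusted p under 0.05. Leaving out 1 library gave 0 to 0 members, with or without that scaling, and 1 to 4 at an unadjusted p under 0.05 in limma. Alox5ap stayed positive in each setting. The 9 pathway calls went to 2 under median-ratio or TMM scaling, 1 under upper-quartile scaling and 0 without a filter (22 at an unadjusted p under 0.05 in limma). By limma-voom 1 was called higher and 0 lower, and by limma-voom with median-ratio scaling 0 higher and 1 lower. The replicate block with median-ratio scaling gave 0 pathway calls. The 1279 calls over all genes went to 147 (85 higher, 62 lower) under median-ratio, 148 (86, 62) under TMM and 138 (75, 63) under upper-quartile scaling, 0 without a filter (4336 at an unadjusted p under 0.05), 848 with a pseudocount of 0.1, 233 (194, 39) by limma-voom, 91 (28, 63) by that tool after median-ratio scaling, 18 with the replicate block and that scaling, and 0 to 34 without 1 library (1597 to 3813 at an unadjusted p under 0.05).

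Lta4h turned to -0.35 with median-ratio, -0.43 with upper-quartile, -0.35 with TMM scaling, -0.36 with limma-voom and that scaling and -0.35 with the replicate block and that scaling, and to -0.53, -0.46, -0.25 and -0.18 with 1 library left out and scaled. With 1 library left out, Ptgs1 ran from -0.53 (without VavCre replicate 2, scaled; -0.31 unscaled) over -0.080 (without control replicate 2, scaled) to 2.12 (without VavCre replicate 1), Ltc4s from -0.079 to 1.83, Ptger1 from -0.045 to 0.86 and Ptger2 from -1.37 (-0.89 unscaled) to 0.070. The cause was not tested. Same-numbered libraries did not deviate together (correlation -0.02 across genes), which cannot exclude that they were handled as pairs. The replicate block gave 1002 calls over all genes and 8 in the pathway. With 2 libraries per genotype, the simulated test called few genes changed 2-fold, so smaller differences among the members could be missed. Leaving out 1 library leaves a lone sample, assumed to vary like the other genotype's.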

Other observations

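Pla2g1b, the secreted pancreatic-type phospholipase, was at 34.2 RPKM in control replicate 2 and at 0.253, 3.58 and 4.69 RPKM in control replicate 1 and VavCre replicates 1 and 2. Ptgs2 was higher in replicate 2 than in replicate 1 of each genotype, at 22.4 against 4.64 RPKM in control and 12.2 against 2.27 RPKM in VavCre libraries. Several further genes of the pathway had their highest value in VavCre replicate 2: Ggt1 at 7.76 RPKM against 0.305 to 1.94 in the other 3 libraries, Dpep1 at 6.45 against 0.678 to 1.40, and Cyp4f14 at 16.9 against 1.05 to 3.40.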
